A study of Mus musculus with 9 samples.

Results

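Natural killer (NK) cells are lymphocytes that kill infected or transformed cells without a rearranged antigen receptor. They weigh signals from activating receptors against signals from inhibitory receptors, most of which read class I MHC molecules on the cell they touch. In the mouse most of these receptors are C-type lectin-like proteins encoded side by side in the NK gene complex, and a separate immunoglobulin-type receptor, NKp46, is the most widely used marker of the lineage. The genes described here are a chosen set of 10 such receptors among the 20926 rows of the deposited table. They are Ncr1, Klrb1c, Klrd1, Klrk1, Klrc1, Klrc2, Klrg1, Klre1, Klra7 and Klra8. A further 17 receptors of the NK gene complex also have rows there and are treated separately below. Of the 10 genes, 9 had a value above 0 in at least 1 library and were tested, and Klra8 was listed at 0 in all 9 libraries.

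Blood RNA came from male DBA/1 mice, labelled as 7 weeks of age, in 3 groups with 3 libraries each. In the study 7 weeks is the age at which the mice were grouped. Blood was drawn later, at an age that is not stated. Ctrl mice were labelled only as not irradiated and formed the control group without the arthritis model. CIA mice had collagen-induced arthritis, a model of rheumatoid arthritis that is set off by injecting chick type II collagen in adjuvant, and were not irradiated. CIA+THz mice were arthritic too and received 0.1 THz irradiation on the swollen ankle for 30 min a day over 14 days, under isoflurane. Anaesthesia is not described for the other groups, so irradiation and anaesthesia cannot be told apart. The labels do not say whether a library is 1 mouse or a pool, so the p-values measure the spread between these libraries.

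The libraries are labelled as blood leukocytes, but they also held red cell RNA, and Alas2, a heme synthesis gene of red cell precursors, took 14.4% to 16.6% of the summed FPKM in Ctrl, 16.3% to 16.7% in CIA and 11.4% to 14.0% in CIA+THz, so each CIA+THz library was below each of the others. The part of this in the receptor values was not tested. The CIA+THz libraries were deeper. The steps between low values put them at 1.35 to 1.87 times the depth of Ctrl replicate 1, against 1 to 1.10 times for Ctrl and 1.02 to 1.27 times for CIA, and the absolute depth is unknown. Levels below are FPKM (sequenced fragments scaled by transcript length and library total) divided by 1 median-of-ratios factor per library. On the log2 scale this rescaling lowered CIA+THz by 0.28 relative to CIA and by 0.31 relative to Ctrl. Fold changes were taken on log2(rescaled FPKM + 0.1), a scale that makes changes of low genes look smaller, and are given with their standard error (SE) and an adjusted p (Benjamini-Hochberg over all tested genes) from limma. A gene passed the criterion where limma's p before adjustment was under 0.05 and its log2 fold change exceeded 0.67 in either direction.

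Per unit of transcript length, Ncr1 and Klrd1 were the most abundant of the receptors in each group, and Klrc2 was the lowest of those detected. In Ctrl the order of the mean rescaled FPKM was Ncr1 (14.5 ± 4.27, SD, n = 3), Klrd1 (11.6 ± 0.732), Klrc1 (8.53 ± 4.36), Klrb1c (6.22 ± 0.973), Klre1 (3.97 ± 0.944), Klrg1 (3.59 ± 1.16), Klra7, Klrk1 (1.01 ± 0.297) and Klrc2. Neighbours in this order overlapped between libraries, with breaks between Klrb1c and Klre1 and between Klrk1 and Klrc2. The order shifted between groups for some genes. Klre1 stood at place 5 in Ctrl, at place 8 in CIA and at place 7 in CIA+THz, and Klrg1 at places 6, 3 and 4. The mean of Ncr1 over the 9 libraries was above that of 80.9% of all genes in the table, and the mean of Klrk1 was above that of 52.0%.

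Ncr1 lies on chromosome 7 of GRCm38, from 4337724 to 4345164. The other 9 genes lie on chromosome 6. Klrg1 stands apart, from 122270596 to 122282882. The other 8 span 1.45 Mb from 128778485 to 130233322, starting with Klrb1c (128778485 to 128789215). In the middle of this stretch are Klre1 (129577905 to 129585827), Klrd1 (129591782 to 129598775), Klrk1 (129610323 to 129623864), Klrc2 (129647496 to 129660689) and Klrc1 (129666015 to 129678973). The Ly49 genes Klra8 (130115226 to 130129898) and Klra7 (130218605 to 130233322) are at its far end.

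RefSeq promoter windows on GRCm38.p6 were available for 8 of the 10 genes, and Klrd1 and Klrg1 were not among them. The 250 bases before the transcript start were searched on both strands for the cores bound by families of transcription factors known from NK cells: TCACAC or GTGTGA for T-box factors such as Eomes, TGTGGT or ACCACA for RUNX factors, and AGGAAG or CTTCCT for ETS factors. A RUNX core was present for 6 of the 8 genes, in 61.5% of their 13 windows, against 14.0% of all 32851 windows in the table. The T-box core was present for 2 of the 8 genes, in 23.1% of their windows against 12.3% of all windows, and the ETS core for 3 of the 8, in 23.1% of their windows against 29.5% of all windows. Some of the 13 windows belong to the same gene and overlap. Windows of Klrb1c, Klrc2, Klre1 and Klra8 also overlap exons annotated in GENCODE. The RUNX cores of Klrb1c, Klrc2 and Klre1 were found only in such windows. The windows of 5 genes follow, 5' to 3' on the strand of the gene with matches in capitals: Ncr1, which holds 2 RUNX cores and 1 T-box core, Klrk1 and Klrc1 with 1 RUNX core each, and the pair Klra7 and Klra8, of which the first was detected in blood and the second was not.
Ncr1, chr7:4337474-4337723, plus strand: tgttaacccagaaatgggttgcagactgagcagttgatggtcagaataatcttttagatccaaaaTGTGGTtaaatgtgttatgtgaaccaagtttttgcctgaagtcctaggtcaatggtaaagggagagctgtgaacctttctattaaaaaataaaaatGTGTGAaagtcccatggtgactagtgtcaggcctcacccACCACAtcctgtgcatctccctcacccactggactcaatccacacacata
Klrk1, chr6:129623865-129624114, minus strand: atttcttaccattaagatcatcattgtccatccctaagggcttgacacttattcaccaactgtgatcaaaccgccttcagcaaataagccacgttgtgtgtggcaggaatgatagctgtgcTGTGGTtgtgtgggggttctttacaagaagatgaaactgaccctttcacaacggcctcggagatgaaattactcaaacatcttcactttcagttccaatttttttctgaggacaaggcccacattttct
Klrc1, chr6:129678974-129679223, minus strand: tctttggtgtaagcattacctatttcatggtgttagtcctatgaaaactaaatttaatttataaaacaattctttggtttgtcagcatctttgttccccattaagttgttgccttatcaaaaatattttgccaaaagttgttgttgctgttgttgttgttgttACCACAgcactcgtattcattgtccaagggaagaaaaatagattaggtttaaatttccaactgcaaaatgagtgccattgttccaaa
Klra7, chr6:130233323-130233572, minus strand: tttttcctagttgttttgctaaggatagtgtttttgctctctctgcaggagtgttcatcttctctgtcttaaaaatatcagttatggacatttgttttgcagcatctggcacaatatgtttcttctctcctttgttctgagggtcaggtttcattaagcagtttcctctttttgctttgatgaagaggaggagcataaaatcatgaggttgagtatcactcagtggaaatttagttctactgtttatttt
Klra8, chr6:130129899-130130148, minus strand: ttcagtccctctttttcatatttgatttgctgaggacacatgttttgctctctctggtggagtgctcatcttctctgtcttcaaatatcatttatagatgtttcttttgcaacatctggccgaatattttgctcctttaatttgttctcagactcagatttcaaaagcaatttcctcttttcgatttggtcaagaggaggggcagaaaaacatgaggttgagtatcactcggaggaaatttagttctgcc
These Klra7 and Klra8 windows were identical at 75.2% of 262 aligned positions and held none of the 3 cores. The windows of Klrc1 and Klrc2 were identical at 49.8%, and those of Ncr1 and Klrc1, which belong to different receptor families, at 48.0%. A match in these letters is not a measured binding site.

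The first comparison, CIA against Ctrl, asks what arthritis did to the receptors in blood. Of the 9 genes, 8 had a lower mean log2 level in CIA, where 50.7% of all tested genes did, and 1, Klrg1, a higher one. Klrd1, Klre1 and Ncr1 fell past the criterion, that is 3 of 9, where 4.25% of all 12366 tested genes were lower past it and 9.04% passed in either direction. None rose past the criterion. The median log2 fold change of the 9 genes was -0.97, against -0.0051 for all tested genes. In bulk blood, fewer cells of a type and less RNA per cell cannot be told apart. After adjustment, 0 of the 9 were under 0.05 by limma, where 0.154% of all tested genes were (before it, 3 of the 9 and 17.3% of all tested genes), and the smallest adjusted p, that of Klrd1, was 0.0680.

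The second comparison, CIA+THz against CIA, asks what irradiation did in arthritic mice. All 9 genes had a higher mean log2 level in CIA+THz, where 52.9% of all tested genes did. Klre1 alone rose past the criterion, 1 of 9, where 2.94% of all tested genes were higher past it and 4.54% passed in either direction. The median log2 fold change of the 9 genes was 0.59, against 0.025 for all tested genes. After adjustment, 0% of all tested genes were under 0.05 by limma in this comparison. Before adjustment 1634 genes were under it, 13.2% of all tested genes, and 2 of the 9 receptors (Klrd1 and Klre1) were among them. With FPKM as deposited, where the libraries are not rescaled, 4 of the 9 rose past the criterion (Klrc1, Klrd1, Klre1 and Ncr1). Of the 12394 genes then tested, 1133 were higher past it and 66 lower, against 363 and 198 after rescaling. The part of the depth of the CIA+THz libraries in these values was not tested.

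In the third comparison, CIA+THz against Ctrl, 7 of the 9 genes had a lower mean log2 level in CIA+THz, where 46.3% of all tested genes did, and Klrg1 and Klra7 had a higher one. Klre1 was past the criterion, lower, where 3.24% of all tested genes were and 7.88% passed in either direction. After adjustment 0 of the 9 were under 0.05 by limma, where 0.105% of all tested genes were (before it, 2 of the 9 and 18.1% of all tested genes). The median log2 fold change was -0.37, against 0.039 for all tested genes. With FPKM as deposited the median was -0.064, and 5 of the 9 genes were lower and 4 higher. After rescaling, the mean log2 level of CIA+THz lay between those of CIA and Ctrl for 7 of the 9 genes. The share of all tested genes placed so was not counted. With FPKM as deposited, Klrk1 (0.10) and Klrc1 (0.25), which are among the 7, were above Ctrl instead. The 3 comparisons share libraries, so these placements are not independent of one another. Across the 3 groups, limma's moderated F-test put 3 of the 9 genes under 0.05 before adjustment, where 21.3% of all tested genes were. Of these, Klrd1 (adjusted p = 0.0377) and Klre1 (adjusted p = 0.0466) were also under 0.05 after adjustment, where 2.53% of all tested genes were, and Ncr1 (adjusted p = 0.173) was not.

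**Figure D1:**
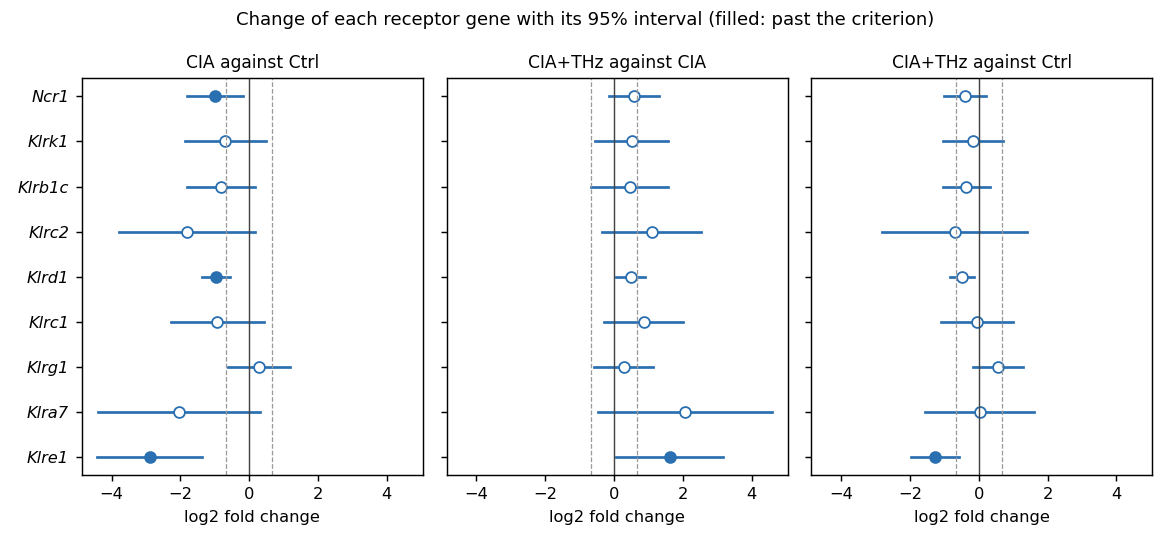
Log2 fold change (x axis) of each of the 9 tested receptor genes (y axis) in the 3 pairwise comparisons, with limma's 95% interval as a line. Filled points passed the criterion, dashed lines mark a log2 fold change of 0.67 in either direction, and the 3 filled points for CIA against Ctrl (Ncr1, Klrd1 and Klre1) are all left of 0.

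Among the activating receptors, Ncr1 encodes NKp46. Its rescaled FPKM was 9.77, 15.5 and 18.1 in the Ctrl libraries, 11.0, 5.20 and 5.91 in CIA, and 11.9, 8.34 and 11.9 in CIA+THz. CIA replicates 2 and 3 were below all other libraries, while CIA replicate 1 was above Ctrl replicate 1, so that CIA and Ctrl overlapped. The mean fell from 14.5 ± 4.27 in Ctrl to 7.38 ± 3.18 in CIA (SD, n = 3), a log2 fold change of -0.99 (SE 0.34, adjusted p = 0.216 by limma). This call was lost, with the direction kept, without Ctrl replicate 2 (-0.92), Ctrl replicate 3 (-0.81), CIA replicate 2 (-0.79) or CIA replicate 3 (-0.88). The CIA+THz mean was 10.7 ± 2.04, and its difference from CIA was 0.59 on the log2 scale (95% interval -0.14 to 1.32, adjusted p = 0.456 by limma).

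Klrk1 encodes NKG2D, which binds stress-induced ligands and signals through Hcst (DAP10). It was near 1 FPKM, at 0.666, 1.18 and 1.18 in Ctrl, 0.731, 0.281 and 0.853 in CIA, and 0.777, 0.743 and 1.08 in CIA+THz. The groups overlapped in every pair, and CIA differed from Ctrl by -0.69 on the log2 scale (95% interval -1.87 to 0.50, adjusted p = 0.523 by limma). Klrb1c encodes NK1.1, the antigen by which NK cells are stained in C57BL/6 mice. Its levels were 7.34, 5.81 and 5.53 in Ctrl, 6.34, 1.91 and 3.39 in CIA, and 4.22, 3.49 and 7.36 in CIA+THz, and all groups overlapped. On the log2 scale CIA differed from Ctrl by -0.82 (95% interval -1.79 to 0.16, adjusted p = 0.357 by limma). Exons of Klrb1c share 413 bases with Gm44511 on the same strand, so its reads may be split.

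CD94, encoded by Klrd1, pairs with the NKG2 chains, inhibitory NKG2A (Klrc1) or activating NKG2C (Klrc2), to read the class Ib molecule Qa-1. Klrd1 had the tightest replicates of the receptors, with a coefficient of variation of 6.31% (Ctrl), 14.2% (CIA) and 13.1% (CIA+THz). Its rescaled FPKM was 10.8, 12.3 and 11.7 in Ctrl, 6.28, 6.49 and 4.95 in CIA, and 8.65, 9.15 and 7.08 in CIA+THz. The groups did not overlap in any pair: each CIA library was below each CIA+THz library, and each CIA+THz library was below each Ctrl library. The separation of CIA+THz from Ctrl rests on the rescaling: as deposited, the FPKM of Klrd1 was 10.7, 10.5 and 7.77 in CIA+THz and 9.94, 10.4 and 12.3 in Ctrl, which overlap, and the log2 fold change was -0.18. In CIA the mean fell from 11.6 ± 0.732 to 5.91 ± 0.840 (SD, n = 3), a log2 fold change of -0.97 (SE 0.17, adjusted p = 0.0680 by limma). This call held in each of the 6 fits that left out 1 library. With a correction for GC content the difference was -0.64, under the fold required. In CIA+THz the mean was 8.29 ± 1.08, which is 0.48 above CIA (SE 0.18, adjusted p = 0.326 by limma) and 0.49 below Ctrl (adjusted p = 0.171 by limma), both under the fold required. Of all tested genes, 11.8% were lower without overlap in CIA against Ctrl, 9.38% were higher without overlap in CIA+THz against CIA, and 12% were lower without overlap in CIA+THz against Ctrl.

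The partners of CD94 varied far more. Klrc1 was 12.5, 3.88 and 9.20 in Ctrl, 5.70, 1.85 and 5.97 in CIA, and 5.73, 10.9 and 6.43 in CIA+THz. Ctrl replicate 2 was below 2 of the CIA libraries, and CIA differed from Ctrl by -0.92 on the log2 scale (95% interval -2.26 to 0.42, adjusted p = 0.447 by limma). CIA+THz differed from CIA by 0.87 (95% interval -0.28 to 2.02, adjusted p = 0.484 by limma). Klrc2 was 0.557, 0 and 0.539 in Ctrl, listed at 0 in all 3 CIA libraries, and 0.217, 0 and 0.208 in CIA+THz, so that every group held a library listed at 0. Of the 50-base words in the longest Klrc1 transcript, 38.1% also occur in Klrc2, so reads of these genes may be divided between them.

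Klrg1, Klre1 and the Ly49 genes complete the set. KLRG1 is an inhibitory receptor for cadherins that marks mature NK cells and short-lived effector CD8 T cells. Klrg1 was 2.60, 3.31 and 4.87 in Ctrl, 6.90, 3.65 and 3.05 in CIA, and 4.26, 4.50 and 7.30 in CIA+THz. The groups overlapped in every pair, and Klrg1 was the only receptor with a higher mean in CIA than in Ctrl, by 0.29 on the log2 scale (95% interval -0.61 to 1.18, adjusted p = 0.739 by limma). Without CIA replicate 1 this difference was -0.057. CIA+THz was 0.57 above Ctrl (95% interval -0.16 to 1.29, adjusted p = 0.380 by limma), and 0.86 above it and past the criterion with FPKM as deposited.

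Klre1 had the largest change of the receptors that passed. It encodes a lectin-like chain that pairs with the KLRI chains into inhibitory or activating receptors. Its rescaled FPKM was 2.97, 4.10 and 4.84 in Ctrl, 1.40, 0.199 and 0.246 in CIA, and 1.94, 1.17 and 1.61 in CIA+THz. All Ctrl libraries were above all others, and CIA replicate 1 lay within the CIA+THz range while CIA replicates 2 and 3 were near 0. The mean fell from 3.97 ± 0.944 in Ctrl to 0.614 ± 0.678 in CIA (SD, n = 3), a log2 fold change of -2.90 (SE 0.65, adjusted p = 0.102 by limma) that stayed past the criterion whichever library was left out. From CIA to CIA+THz, at 1.57 ± 0.383, it rose by 1.61 (SE 0.65, adjusted p = 0.362 by limma). This call was lost, with the direction kept, when CIA replicate 2 (1.19) or 3 (1.30) or CIA+THz replicate 1 (1.46), 2 (1.80) or 3 (1.59) was left out. CIA+THz was below Ctrl by a log2 fold change of -1.28 (SE 0.30, adjusted p = 0.125 by limma).

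Many of the Ly49 receptors bind classical class I MHC. Klra7, the gene of inhibitory Ly49G, was 1.59, 3.97 and 1.12 in Ctrl, 0, 1.15 and 0.845 in CIA, and 3.07, 0.707 and 3.34 in CIA+THz. The groups overlapped, since CIA replicate 2 was above Ctrl replicate 3 and above CIA+THz replicate 2. Its fitted differences were wide, at -2.05 for CIA against Ctrl (95% interval -4.41 to 0.31, adjusted p = 0.342 by limma) and 2.07 for CIA+THz against CIA (95% interval -0.45 to 4.60, adjusted p = 0.452 by limma). CIA replicate 1, where Klra7 was listed at 0, bears on both: without it they were -0.90 and 0.93. Klra8, the gene of activating Ly49H, was listed at 0 in every library. The build named in the submitters' processing notes, mm10, is the C57BL/6J genome, and inbred strains differ in which Ly49 genes they carry, so these values rest on how DBA/1 reads map to C57BL/6J genes. Of the 50-base words of Klra8, 33.1% occur in other genes, and of those of Klra7, 14.7% do.

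**Figure D2:**
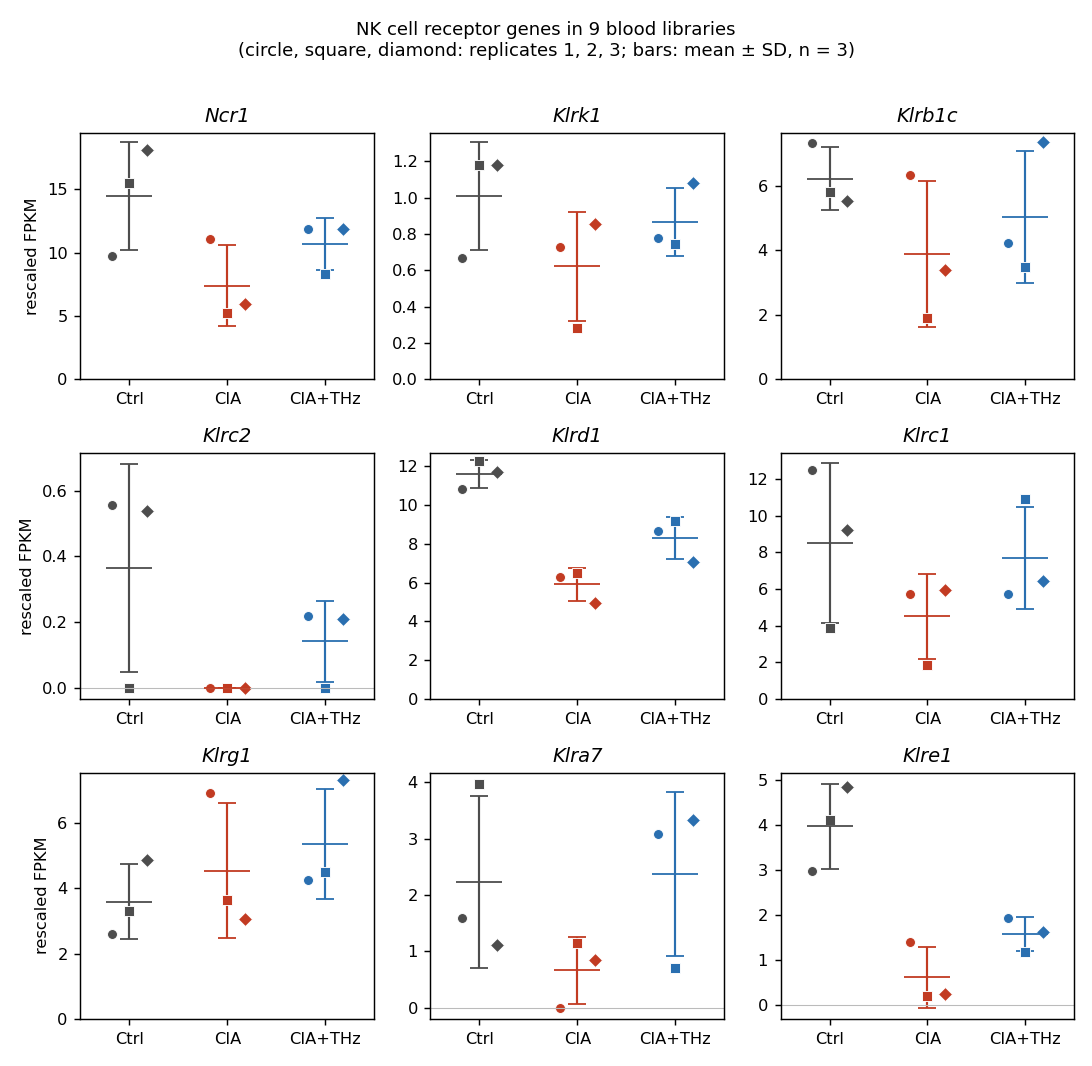
Rescaled FPKM (y axis, linear, starting at or below 0) of the 9 detected receptor genes in the Ctrl, CIA and CIA+THz groups (x axis). Each point is 1 library, and the bars give the mean and SD of 3 libraries. Klrd1 is the gene whose 3 groups are fully separated after rescaling, and the CIA points of Klre1 are 1.40, 0.199 and 0.246.

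The receptors did not all follow a common course over the libraries. Over the 9 libraries, Pearson's r between pairs of the 9 genes on the log2 scale had a median of 0.40 over 36 pairs, from -0.34 (Klrg1 and Klra7) to 0.94 (Ncr1 and Klre1). The libraries share depth and group within these values. Once each group's mean was removed, the median was 0.095. With the mean of the other 8 genes, Klre1 had an r of 0.92 and Ncr1 of 0.88, against 0.20 for Klra7 and 0.074 for Klrg1. CIA replicate 2 held the lowest value of the 9 libraries, ties left out, for 5 of the 9 genes. Without that library the median log2 fold change of the receptors was -0.79 in CIA against Ctrl, with 2 of the 9 past the criterion (Klrd1 and Klre1), and 0.38 in CIA+THz against CIA, with 0 past it by limma. The summed rescaled FPKM of the receptors ran from 48.8 to 57.1 in Ctrl, from 20.7 to 38.4 in CIA and from 39.0 to 46.3 in CIA+THz, so each CIA library was below each of the others.

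The 5 genes outside the set whose log2 level was most like the mean standardised level of the receptors over the 9 libraries were Chuk (r = 0.98), Mal (r = 0.98), Pnn (r = 0.97), Trim44 (r = 0.97) and Klri2 (r = 0.96), among genes with a mean of at least 1. Klri2 encodes a partner chain of Klre1. Its rescaled FPKM was 3.78, 3.29 and 5.23 in Ctrl, 2.62, 1.55 and 1.67 in CIA, and 3.41, 3.42 and 4.05 in CIA+THz. Each CIA library of Klri2 was below each other library. Among the 9741 genes compared, the granule genes Gzma (r = 0.93) and Prf1 (r = 0.92) were at places 17 and 22. Il2rb (0.82) was at place 163, Cd8a (0.79) at 262, Eomes (0.67) at 695 and Cd3e (0.67) at 727. These genes were chosen beforehand, and other genes stand between them.

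Other receptors of the NK gene complex moved in the same comparisons. Of 17 listed, 11 were tested, and 4 fell past the criterion in CIA against Ctrl with none higher: Klra3 (Ly49C, -1.57), Klrb1a (-2.52), Klrb1f (-1.38) and Klri2 (-1.05). Klra3 was 13.3, 15.0 and 14.6 in Ctrl, 3.95, 3.96 and 6.76 in CIA, and 8.84, 6.74 and 13.2 in CIA+THz. From CIA to CIA+THz, 8 of the 11 were higher and 3 lower, and 3 rose past the criterion, Klra3 (0.95), Klri2 (0.90) and Klrc3. Klrc3, the gene of NKG2E, was near the floor. It was 0.354, 0 and 1.36 in Ctrl, listed at 0 in the 3 CIA libraries, and 0.958, 0.514 and 1.98 in CIA+THz. The part of the greater depth of the CIA+THz libraries in this call was not tested. Against Ctrl, 1 was past the criterion in CIA+THz, Klra17 (-1.06), whose product Ly49Q is known from plasmacytoid dendritic cells and neutrophils. Klra17 and Klra2, the most abundant of the list, did not rise after irradiation. Their means were 83.8 and 47.6 in Ctrl, 52.7 and 37.9 in CIA, and 40.1 and 34.7 in CIA+THz. The summed FPKM of the list was 156 to 180 in Ctrl, 94.2 to 112 in CIA and 89.1 to 115 in CIA+THz. Most of it came from Klra17 and Klra2, so the sum follows them more than the list. Of 15 tested receptors of other families, 1 fell in CIA, Cd226 (DNAM-1, -1.13, adjusted p = 0.0472 by limma).

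The partners through which the receptors signal, and the ligands they bind, were counted in the same fits. None of the 17 tested adaptors and kinases passed in CIA against Ctrl. Tyrobp (DAP12), which carries the signal of some of the activating receptors and is also abundant in myeloid cells, was 251, 213 and 216 in Ctrl, 336, 348 and 333 in CIA, and 223, 196 and 220 in CIA+THz. CIA was 0.58 above Ctrl on the log2 scale (adjusted p = 0.0758 by limma), under the fold required, and from CIA to CIA+THz it fell by 0.67, past the criterion (adjusted p = 0.172 by limma). Hcst was 0.28 higher in CIA than in Ctrl (adjusted p = 0.500 by limma). H2-T23, the gene of Qa-1, the ligand of CD94 with NKG2A, differed by 0.18 in CIA against Ctrl (adjusted p = 0.460 by limma). Of 8 tested ligands, 1 passed in that comparison, Cdh1, the gene of the KLRG1 ligand E-cadherin, which was lower by a log2 fold change of -0.81.

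**Figure D3:**
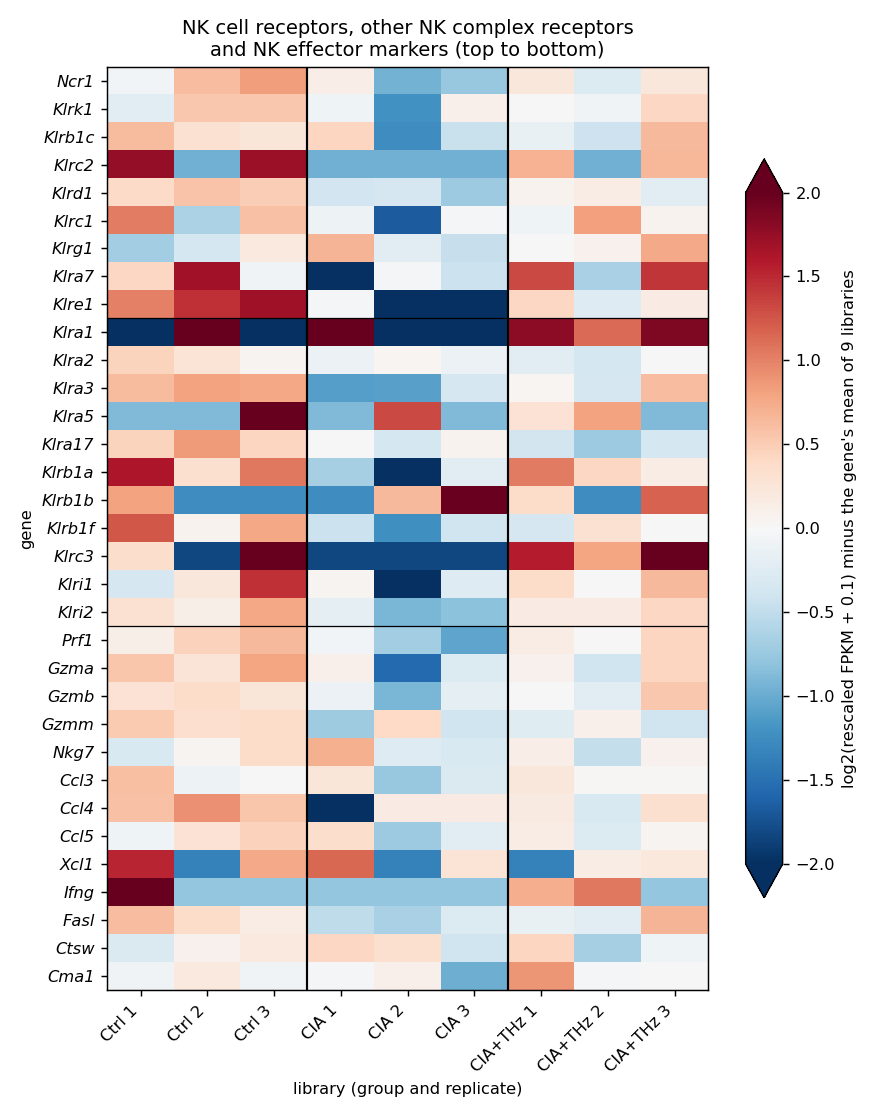
Level of each gene (rows) in each library (columns) as log2(rescaled FPKM + 0.1) minus the mean of that gene over the 9 libraries, with the colour scale ending at 2 in either direction. The rows are the 9 receptor genes, then all 11 tested receptors of the NK complex outside the set, then all 13 NK effector markers, and Klra3 and Klri2 are blue in all 3 CIA columns, as Klre1 is in CIA replicates 2 and 3.

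The NK effector markers were measured beside the receptors as a check of the cell type. All 13 were tested. Prf1 and Gzma, like the receptor gene Ncr1, were above 0 in every library. Ifng was listed at 0 in all 3 CIA libraries, and Xcl1 in 1 library of each group. In CIA against Ctrl, 11 of the 13 had a lower mean log2 level and 2 a higher one. Past the criterion 4 fell and none rose: Prf1 (perforin), Gzma (granzyme A, -1.11), Gzmb (-0.70) and Fasl (-0.85). Nkg7 (mean 16.3 in Ctrl, 17.0 in CIA) and Ctsw (6.06 and 6.67) were not lower. The mean rescaled FPKM of Prf1 was 52.0 in Ctrl and 26.7 in CIA. From CIA to CIA+THz, 1 rose, Prf1 (0.79), and in CIA+THz against Ctrl none passed. Of the 12 NK transcription factors, 10 had a lower mean log2 level in CIA than in Ctrl and 2 a higher one. The 1 that passed there, Nfil3, was higher (0.78), and Eomes differed by -0.68 (adjusted p = 0.385 by limma). Of the 8 cytokine receptors, Il12rb2 fell (-1.47) and Il15ra rose (0.83) in CIA, and Il2rb, the shared chain of the interleukin 2 and 15 receptors, was lower by a log2 fold change of -0.47 (adjusted p = 0.225 by limma), under the fold required.

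Markers of other blood cells moved in the same libraries. Several of the receptors, among them Klrd1, Klrc1, Klrk1 and Klrg1, are also found on activated CD8 T cells. All 13 T cell markers had a lower mean log2 level in CIA than in Ctrl, with 2 past the criterion (Cd28 and Trat1), and Cd8a differed by -0.53 (adjusted p = 0.191 by limma). The summed FPKM of the T cell markers was 417 to 480 in Ctrl, 319 to 369 in CIA and 422 to 559 in CIA+THz, and none of the 13 was at 0 in all libraries. Of the 12 monocyte markers, 8 rose past the criterion in CIA against Ctrl and 4 fell in CIA+THz against CIA, and their summed FPKM was 689 to 783 in Ctrl, 1134 to 1237 in CIA and 829 to 902 in CIA+THz. Against CIA, 12 of 12 neutrophil markers had a lower mean log2 level after irradiation, 2 of them past the criterion. Their summed FPKM, most of it from S100a9, was 12702 to 21424 (Ctrl), 14463 to 18794 (CIA) and 10727 to 12238 (CIA+THz). Platelet markers were lower there too for 8 of 9 genes, 0 of them past the criterion by limma, with sums of 4207 to 5131 (Ctrl), 4032 to 5035 (CIA) and 3359 to 4063 (CIA+THz). In the same comparison 9 of 10 B cell markers had a higher level, 0 of them past the criterion by limma, with sums of 512 to 617 (Ctrl), 548 to 715 (CIA) and 660 to 858 (CIA+THz). Of the 9 red cell markers, 8 already had a lower mean log2 level in arthritis without irradiation than in controls, 2 of them past the criterion (median -0.69). From CIA to CIA+THz, 6 were lower and 3 higher, 0 of them past the criterion by limma (median -0.023). All 9 were lower in CIA+THz against Ctrl, and 6 fell past the criterion (median -0.69). The sum of the list, most of it from Alas2, was 69247 to 103878 (Ctrl), 87303 to 98015 (CIA) and 47543 to 65581 (CIA+THz). This sum therefore follows Alas2 more than the list. No gene of the monocyte, neutrophil, platelet, B cell or red cell lists was at 0 in all libraries. The part of these shifts in the receptor values was not tested.

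**Figure D4:**
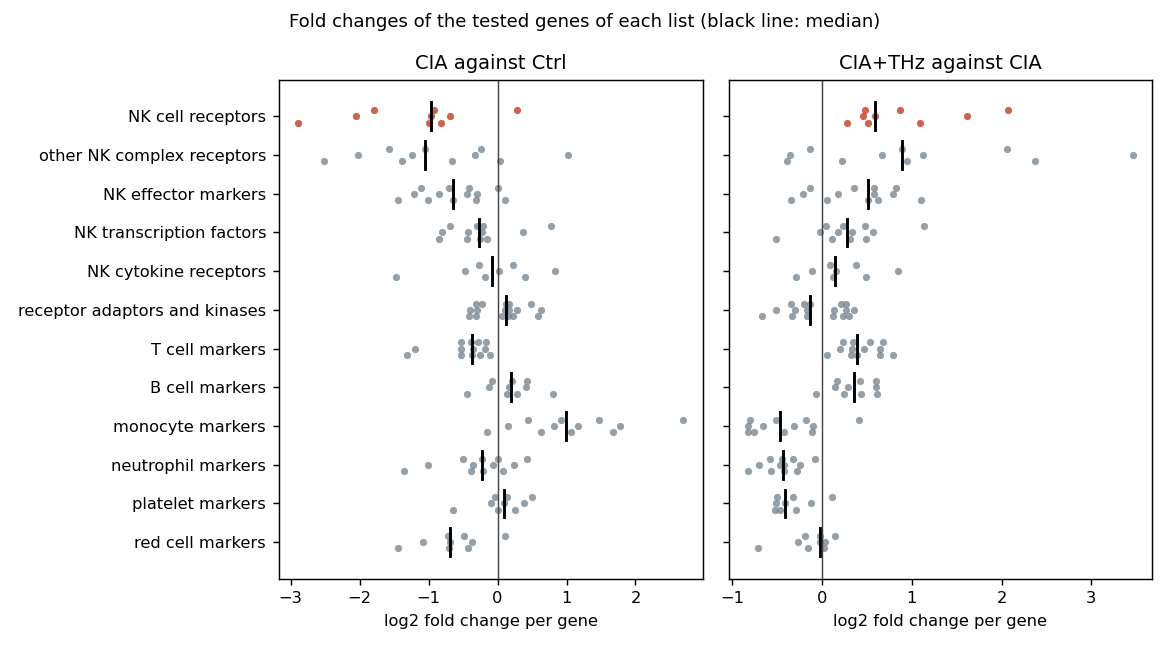
Log2 fold change of every tested gene (points, x axis) of the NK cell receptors and 11 marker or pathway lists (y axis) in CIA against Ctrl and in CIA+THz against CIA, with a black line at the median of each list. The receptor median was -0.97 in the left panel and 0.59 in the right panel, and the points of the monocyte markers lie mostly on the opposite side of 0 in both.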

How the data were processed

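For 20926 gene symbols in each library, the values that the authors deposited are FPKM. RNA was prepared with the TruSeq V2 kit, which does not mark strand, and sequenced paired-end. The submitters' processing notes name bcl2fastq 2.0, HISAT2, StringTie, DESeq2 and the build mm10. Further settings are not given in the sources used here, and FPKM holds no counts, so the absolute depth, which limits the precision of genes near 0, is unknown.

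The FPKM of each library were rescaled by its median ratio (0.847 to 1.24) to the geometric mean of the 10312 genes that no library lists at 0. Genes whose mean reached 0.1 after rescaling, 12366 in number, were kept, and log2(rescaled FPKM + 0.1) was fitted in limma 3.58.1 (R 4.3.3, eBayes with trend), pairwise on 6 libraries and over all 9. Adjusted p-values are Benjamini-Hochberg over all tested genes. Without counts, no count model was run. The thresholds, an unadjusted p of 0.05 and a log2 fold change of 0.67, are those of the study. All receptors were named, and from each other list up to 4 genes past the criterion by smallest p, with Tyrobp, Hcst, Eomes, Prf1, Gzma, Il2rb, H2-T23, Cd3e, Cd8a and Alas2 wherever measured, and the 5 genes of most similar level. The receptors and lists were chosen with earlier results of these data known. The code was tested on simulated data. The alternatives were FPKM as deposited, a pseudocount of 1, a minimum mean of 1 or none, no variance trend, all groups in a fit, a replicate block, leaving out each library, the adjusted p, a linear analysis of variance, and a GC correction added after seeing the data. Gene symbols were matched to GENCODE for coordinates on GRCm38.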

Additional observations from a re-analysis of the deposited data

How the results depend on the processing

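With a threshold of 0.05 on limma's adjusted p, 0 of the receptors were called in each pairwise comparison, and the genes of all other lists called went from 28 to 5 in CIA against Ctrl, from 15 to 0 in CIA+THz against CIA and from 28 to 2 in CIA+THz against Ctrl. In CIA+THz against CIA, the 1 receptor called became 4 with FPKM as deposited (31 other listed genes), 0 with no filter on low values, 0 with no variance trend and 2 with all groups in a fit, and 0 to 2 when a library was left out. Against Ctrl, CIA+THz had 2 with FPKM as deposited and 1 to 2 when a library was left out. CIA had 2 to 4 receptors called against Ctrl when a library was left out.

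Differences that changed sign were all outside the criterion. In CIA+THz against Ctrl, Klrk1 was 0.10 and Klrc1 0.25 with FPKM as deposited, and Klrc1 was 0.12 with the GC correction. When a library was left out there, Klrc1 ranged from -0.53 to 0.30 and Klra7 from -0.35 to 0.70, and Klrg1 in CIA against Ctrl ranged from -0.057 to 0.52.

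The labels number the libraries 1 to 3 in each group and tie no number to a shared animal. Deviations of same-numbered libraries from their group means had correlations of -0.052 to 0.031 over 9 pairs, so the numbers were not taken as pairs. With a replicate block, 4, 1 and 1 receptors were called in the 3 comparisons (all tested genes: 1073, 506 and 967), and Ncr1 was no longer called in CIA against Ctrl.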
